A study of Mus musculus with 16 samples.

Results

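The miRNAs of the imprinted Dlk1-Dio3 locus were examined in whole lungs of mice with allergic airways disease (AAD). Members were all mouse miRNAs on the array whose name carries 1 of 47 miRNA numbers of the locus, in either arm, which gave 73 of the 611 mouse miRNAs measured. Each of the 47 numbers had at least 1 miRNA on the array. They were chosen by name and not by a measured value, though earlier results of these data were known.

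MiRNAs are short RNAs that pair with mRNAs, mainly through a seed near their 5′ end, and lower the stability and translation of those mRNAs. The Dlk1-Dio3 locus is imprinted: the protein coding genes Dlk1, Rtl1 and Dio3 are expressed from the paternal chromosome, and the long non-coding RNAs Meg3, anti-Rtl1, Rian and Mirg, together with their many miRNAs, from the maternal chromosome. The miRNAs of the locus are best known from the embryo, the placenta and the brain, and miR-127 has also been studied in the developing lung.

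Whole lungs of young adult BALB/c mice were profiled on 16 Agilent 1-colour miRNA arrays in 4 groups. PBS/PBS mice (n = 2) received PBS with Alhydrogel, an aluminium adjuvant, in place of ovalbumin (OVA) for sensitisation, and PBS intranasally as the challenge. PBS/OVA mice (n = 4) had the same mock sensitisation and were challenged with 10 μg of OVA on each of 4 days, from day 12 to day 15. OVA/OVA mice (n = 6) were sensitised by intraperitoneal injection of 50 μg of OVA with 1 mg of Alhydrogel on day 0 and challenged with OVA in the same way. OVA/OVA DEX mice (n = 4) had both OVA steps and were treated with the glucocorticoid dexamethasone at 3 mg/kg from day 11. The groups without DEX are labelled as given PBS for that treatment, and all lungs were taken 24 hours after the last challenge. The labels do not say whether each array held 1 mouse, so the p-values measure the spread between these samples. A whole lung holds many cell types, and a lower signal can come from fewer cells of a type or from less of a miRNA per cell, which cannot be told apart here.

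Values are log2 of the scaled fluorescence signal of a miRNA. They were compared between arrays for 1 miRNA at a time and not between miRNAs, because probes differ in brightness. A miRNA is written as detected on an array where the Feature Extraction software gave it its flag for a detected miRNA. A difference was called where the adjusted p of the limma test (Benjamini-Hochberg, over 266 miRNAs) fell under 0.05 with levels at least 2-fold apart.

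The mature sequences of the miRNAs that carry the results, taken from RefSeq on build GRCm38.p6, are shown 5′ to 3′ with the seed (bases 2 to 8) in capitals. The first group is the set transcribed antisense to Rtl1, miR-127-3p at chr12:109592888-109592909, miR-434-3p at chr12:109594565-109594586 and miR-136-5p at chr12:109595331-109595352, all on the plus strand and within the annotated extent of Rtl1. The other arm of the miR-136 hairpin is given with them because only 1 of the arms gave signal.
miR-127-3p: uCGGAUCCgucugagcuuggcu
miR-434-3p: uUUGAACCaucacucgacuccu
miR-136-5p: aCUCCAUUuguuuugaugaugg
miR-136-3p: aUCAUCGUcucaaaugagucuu

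The second group is the Mirg cluster, a long run of hairpins that starts with miR-379. Shown are miR-379-5p at chr12:109709065-109709085, miR-299b-5p at chr12:109710673-109710693 on the minus strand, miR-329-3p at chr12:109713541-109713562, miR-494-3p at chr12:109715367-109715388, miR-300-3p at chr12:109724363-109724384 and miR-377-3p at chr12:109740553-109740574, with the others on the plus strand. MiR-377-3p lies within annotated Mirg, and the other miRNAs of this group overlap none of the genes looked at (Dlk1, Meg3, Rtl1, Rian, Mirg and Dio3). MiR-381-3p at chr12:109726870-109726891 is shown for its likeness to miR-300-3p.
miR-379-5p: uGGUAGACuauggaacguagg
miR-299b-5p: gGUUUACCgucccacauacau
miR-329-3p: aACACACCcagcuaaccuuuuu
miR-494-3p: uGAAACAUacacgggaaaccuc
miR-300-3p: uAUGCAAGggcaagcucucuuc
miR-377-3p: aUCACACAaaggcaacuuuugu
miR-381-3p: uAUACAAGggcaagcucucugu

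RefSeq entries matched 68 of the 73 members. The 5 without an entry were miR-376c-3p, miR-299-3p, miR-485-5p, miR-487b-3p and miR-496-3p. All 68 lie on chromosome 12, 67 on the plus strand and 1 (miR-299b-5p) on the minus strand, in 47 hairpins spread over 180 kb. They hold 67 different seeds. The only seed held by more than 1 member was UGGAUAU, in miR-376c-5p and miR-376b-5p, and neither of these was detected on any array. MiR-300-3p and miR-381-3p are identical at 19 of 22 bases. Counted from the 5′ end with miR-300-3p first, they differ by G4A, U21G and C22U, the first of which lies in the seed. MiR-299b-5p (21 bases) is contained in full in miR-299a-5p (22 bases), which is not on the array, so the miR-299b-5p probes could also take up that miRNA.

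Few miRNAs of the locus were detected in the lung. Of the 73 members, 19 were detected on at least 1 array, or 26.0%, compared to 55.3% of all 611 mouse miRNAs. The remaining 54 were detected on no array. The filter for the tests, detection on every array of at least 1 group, was passed by 10 members, or 13.7%, compared to 43.5% of all mouse miRNAs. Those 10 members are not the whole set, and their values do not describe the 63 others.

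Detection is given by place in the locus, with no test between the places. In anti-Rtl1, 3 of 10 members were detected and all 3 were tested. In the Mirg cluster, 14 of 51 were detected and 7 were tested. Among the 10 members in Meg3 and before anti-Rtl1 only miR-337-3p was detected (3 arrays), and of the 2 between anti-Rtl1 and Mirg only miR-370-3p (1 array). Median GC content was 47.6% both in the 18 detected members with a sequence and in the 50 not detected.

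**Figure D1:**
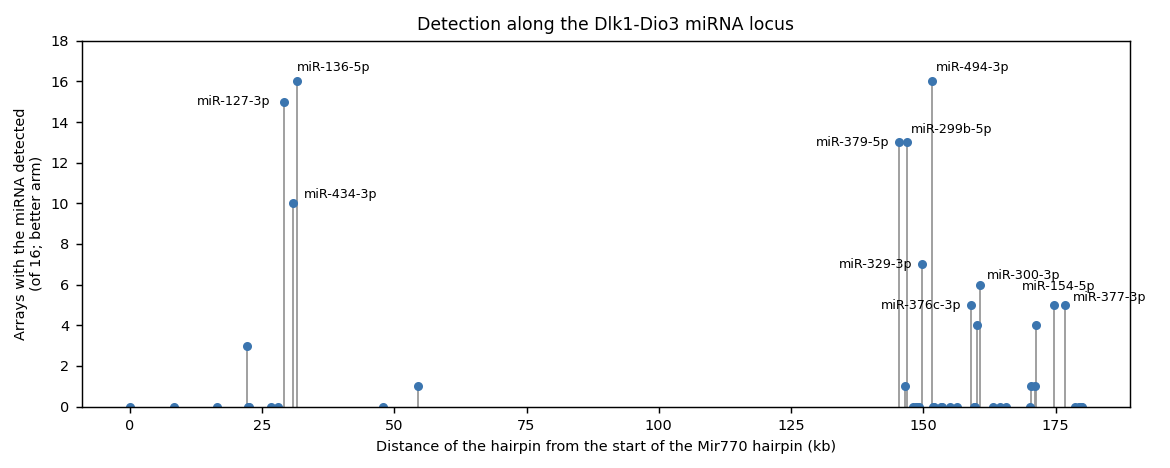
Each point is 1 hairpin, placed by its distance in kb from the first hairpin of the locus (x axis), and its height is the number of the 16 arrays on which the better detected arm was seen (y axis). MiR-136-5p and miR-494-3p reach 16 arrays, and most hairpins lie at 0.

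Going by their names, both arms of 23 hairpins were on the array. Both arms were detected for 1 of them, miR-411, with each arm seen on 1 array. A single arm was detected for 9 hairpins and neither arm for 13. The arms seen were miR-127-3p, miR-136-5p, miR-154-5p, miR-300-3p, miR-337-3p, miR-376a-3p, miR-376c-3p, miR-434-3p and miR-485-3p, and for each of these the opposite arm was at 0 of 16 arrays.

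MiR-136-5p and miR-494-3p were detected on all 16 arrays. MiR-127-3p was detected on 15, miR-379-5p and miR-299b-5p on 13 each, and miR-434-3p on 10. The remaining tested members were seen on fewer arrays, with 7 for miR-329-3p, 6 for miR-300-3p, and 5 each for miR-376c-3p and miR-377-3p. Members detected but not tested were miR-154-5p (5 arrays), miR-376a-3p and miR-485-3p (4 each), miR-337-3p (3), and miR-134-5p, miR-370-3p, miR-411-3p, miR-411-5p and miR-668-3p (1 each).

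The arrays differed in brightness and in the number of members seen. The summed signal of all mouse miRNAs ran from 793227 to 940050 in PBS/PBS and from 493063 to 718149 in PBS/OVA. It ran from 251350 to 733489 in OVA/OVA and from 499733 to 638811 after DEX. The number of members detected was 10 to 13, 5 to 15, 2 to 12 and 3 to 10 in the same order. Between 224 and 301 mouse miRNAs were detected per array, and 0 spots were saturated. Both PBS/PBS arrays were on slide 1, while each other group had arrays on both slides. Counts of detection are therefore given as descriptions of each array and not as a comparison between groups. Of 6 miRNAs listed for neurons, the 4 arms of miR-124 and miR-9 were detected on no array, and miR-128-3p and miR-219-5p on all of them.

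Within the groups, several members were high or low on the same arrays. On PBS/OVA replicate 2 all 10 tested members lay above the PBS/OVA mean of the remaining arrays, by a median of 1.20 on the log2 scale, and 9 of the 10 were at their highest in that group. Over all 266 tested miRNAs this array was the highest of its group for 27.1% and the lowest for 48.1%. Its summed signal of 493063 was the lowest in the group, and it had 15 members detected, the highest number on any array.

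OVA/OVA replicate 2 lay above the mean of the remaining 5 arrays for 10 of 10 members and was the highest for 5, against 16.2% of all miRNAs. OVA/OVA replicate 1 lay above for 9 of 10. In the other direction, PBS/OVA replicate 1 was below the mean of the others for each of the 10 members and the lowest for 7, against 23.3% of all miRNAs. OVA/OVA DEX replicate 4 was the lowest of its group for 5 members, against 48.9% of all miRNAs, so this array was low for members no more often than for other miRNAs. Only 5 members were detected on OVA/OVA replicate 2, 5 on PBS/OVA replicate 1 and 3 on OVA/OVA DEX replicate 4. Several of the values compared on these arrays are therefore of miRNAs not detected there. The members shared no single order of arrays: miR-434-3p was highest in its group on OVA/OVA replicate 5, where miR-494-3p was at its lowest in that group. MiR-376c-3p was also highest there, at 4.75, but it was detected on no OVA/OVA array.

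**Figure D2:**
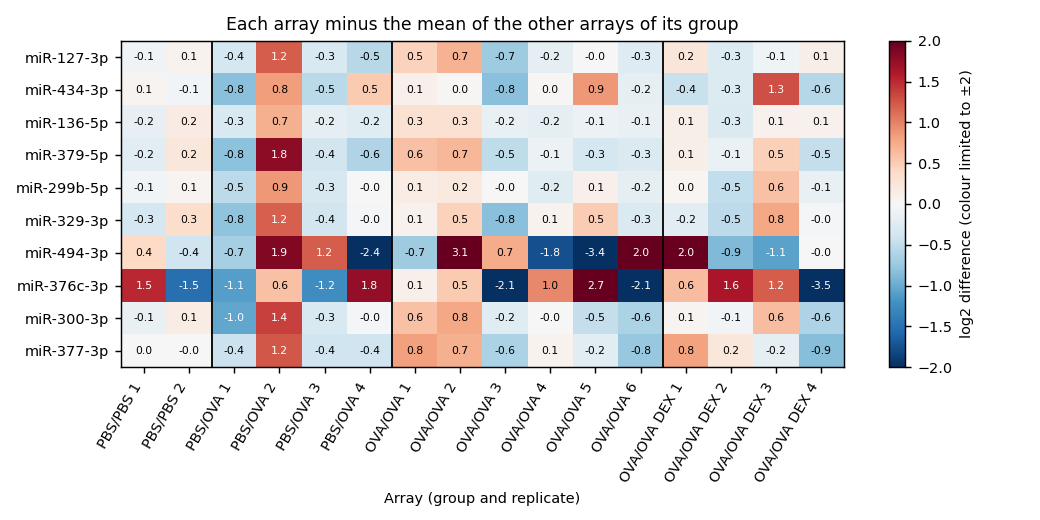
Each cell gives the log2 level of a tested member (rows) on an array (columns, by group and replicate) minus its mean on the other arrays of the same group, with red above and blue below 0 and the colour limited to 2. The column of PBS/OVA replicate 2 is above 0 for all 10 members, and the rows of miR-494-3p and miR-376c-3p hold the widest swings.

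The spread of miR-494-3p stood out. Its levels covered 6.58 on the log2 scale over the 16 arrays, a 95.9-fold range, which was the 3rd widest of 266 tested miRNAs, and its SD within groups was 1.58. MiR-376c-3p had an SD within groups of 1.47 and lay at the floor set for low signals on 3 arrays. The other 8 members had an SD within groups of 0.23 to 0.55, and the median over all tested miRNAs was 0.20.

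The first question was which miRNAs of the locus were altered by DEX in allergic lungs. MiR-494-3p and miR-379-5p were higher in OVA/OVA than in OVA/OVA DEX and were the only 2 of 10 tested members called in any of the 6 comparisons. MiR-300-3p and miR-377-3p were also higher by the test, but by less than 2-fold and not under every setting. The 2 calls are a share near that of all tested miRNAs, of which 12.8% were called in this comparison (9.4% higher in OVA/OVA).

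MiR-494-3p, in the Mirg cluster, had levels of 6.15 and 5.75 in PBS/PBS and of 6.31, 8.20, 7.72 and 5.01 in PBS/OVA (log2 scaled signal). In OVA/OVA its lowest level was 5.88, its median 8.72 and its highest 11.29. In OVA/OVA DEX it had levels of 6.99, 4.84, 4.70 and 5.50. The high arrays were OVA/OVA replicates 2, 6 and 3, at 11.29, 10.39 and 9.33. Of the OVA/OVA arrays all but replicate 5 lay above every OVA/OVA DEX array, and replicate 5 lay among them, so the groups overlapped.

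The OVA/OVA arrays had a mean miR-494-3p level of 8.71 ± 2.02 (SD, n = 6), and those of OVA/OVA DEX one of 5.51 ± 1.05 (SD, n = 4). They differed by 3.20 in log2 signal (SE 0.96), a 9.17-fold higher level in OVA/OVA, with an adjusted p of 0.0141 (limma, Benjamini-Hochberg). Within slide 1 the difference was 3.45 and within slide 2 it was 3.44. The 2 probes of miR-494-3p, taken alone, gave differences of 3.17 and 3.26.

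The 3 OVA/OVA arrays with the highest miR-494-3p also differed in other measures. Their summed signals were 407898, 251350 and 286004 (replicates 2, 6 and 3), while replicate 5, with the lowest miR-494-3p of the group, had 371463. The summed level of 7 miRNAs of striated muscle (miR-1a, miR-133, miR-206 and miR-208) was 10.03, 9.84 and 9.39 on these 3 arrays, below the 10.59 to 11.13 of the other OVA/OVA arrays and the 10.80 to 11.55 of OVA/OVA DEX. Summed haematopoietic miRNAs were highest there, at 15.536, 15.467 and 15.563, against at most 15.466 on the other OVA/OVA arrays. Those of fibroblasts (12.58, 12.55 and 12.56), smooth muscle (11.28, 11.17 and 11.28) and neurons (6.66, 6.45 and 6.71) were at their lowest of the group. The lists for endothelium, epithelium, ciliated epithelium and red cells did not set these 3 arrays apart. With array brightness as a covariate the difference of miR-494-3p was 2.73, with an adjusted p of 0.0449 (limma). The part of the miRNAs of these cell types in the result was not tested.

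MiR-379-5p, the first miRNA of the Mirg cluster, had levels of 4.14 and 4.37 in PBS/PBS and of 3.63, 5.59, 3.96 and 3.79 in PBS/OVA. In OVA/OVA its lowest level was 4.25, its median 4.50 and its highest 5.22, and in OVA/OVA DEX its levels were 3.65, 3.46, 3.92 and 3.20. Each OVA/OVA array lay above each OVA/OVA DEX array, and miR-379-5p was the only member without overlap in this comparison (31.2% of all tested miRNAs had none).

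The difference of miR-379-5p between OVA/OVA (4.67 ± 0.42, SD, n = 6) and OVA/OVA DEX (3.56 ± 0.30, SD, n = 4) was 1.11 on the log2 scale (SE 0.34, 2.16-fold), with an adjusted p of 0.0143 (limma, Benjamini-Hochberg). It was detected on 5 of 6 OVA/OVA arrays and on 2 of 4 OVA/OVA DEX arrays. Within slide 1 the difference was 1.76 and within slide 2 it was 0.72, and its 2 probes gave 1.71 and 0.86. The call lies close to the 2-fold limit and was lost under 3 other ways of scaling, under normexp background correction, and without OVA/OVA DEX replicate 4, where the difference was 0.99. Without OVA/OVA replicates 1 and 2 and PBS/OVA replicate 2, the arrays on which members were high together, it was 0.85 with an adjusted p of 0.00111, while miR-494-3p was still called. OVA/OVA replicates 1 and 2 were also the only OVA/OVA arrays on slide 1, where 2 arrays were compared with 2. The larger slide 1 difference, here and for miR-300-3p and miR-377-3p below, is therefore not separate from these high arrays.

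MiR-300-3p had levels of 2.96 and 3.11 in PBS/PBS and of 2.49, 4.30, 3.04 and 3.26 in PBS/OVA. In OVA/OVA it ranged from 2.98 to 4.15 with a median of 3.40, and in OVA/OVA DEX its levels were 2.68, 2.61, 3.11 and 2.18. OVA/OVA DEX replicate 3 lay among the lower OVA/OVA arrays, and the other 3 lay below all of them. MiR-300-3p was detected on none of the OVA/OVA DEX arrays and on 2 of 6 OVA/OVA arrays, so the size of the difference is uncertain. The bound was a 1.55-fold higher level in OVA/OVA (0.64 on the log2 scale). It is no firm minimum, since most OVA/OVA arrays lacked detection as well, and normexp background correction gave a difference of 0.31. The fitted difference was 0.86 (SE 0.32, adjusted p 0.0355, limma), and within slides 1 and 2 the differences were 1.64 and 0.37.

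MiR-377-3p, near the end of the cluster, had levels of 3.01 and 3.00 in PBS/PBS and of 2.90, 4.15, 2.92 and 2.92 in PBS/OVA. In OVA/OVA it ranged from 2.62 to 3.94 with a median of 3.19, and in OVA/OVA DEX its levels were 2.96, 2.52, 2.21 and 1.71. The groups overlapped through OVA/OVA DEX replicate 1. MiR-377-3p was detected on none of the OVA/OVA DEX arrays and on 2 of 6 OVA/OVA arrays. The bound was a 1.47-fold higher level in OVA/OVA, which is no firm minimum for the same reason as for miR-300-3p. The fitted difference was 0.91 (SE 0.33, adjusted p 0.0331, limma). Within slides 1 and 2 the differences were 1.56 and 0.57. Neither miR-300-3p nor miR-377-3p passed the test under 3 other ways of scaling, under normexp, where they differed by 0.31 and 0.29, or without the detection filter. With the exact Mann-Whitney test miR-377-3p did not pass either (adjusted p 0.0714), while miR-300-3p had an adjusted p of 0.0444. Without OVA/OVA replicates 1 and 2 and PBS/OVA replicate 2, miR-377-3p did not pass. Apart from leaving out single arrays, miR-377-3p thus failed under 7 of 12 other settings and miR-300-3p under 5 of 12. Leaving out OVA/OVA replicate 1 or 2, or OVA/OVA DEX replicate 2 or 4, also ended both (adjusted p up to 0.107 and 0.112), as did OVA/OVA DEX replicate 1 for miR-300-3p and replicate 3 for miR-377-3p.

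In all, 4 of 10 members had an adjusted p under 0.05 in this comparison, all higher in OVA/OVA and all in the Mirg cluster, compared to 53.4% of all tested miRNAs (21.1% higher in OVA/OVA). The median difference of the 10 members was 0.24, which turned to -0.05 without scaling and to -0.10 with quantile normalization, and that of all 266 tested miRNAs was -0.09.

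Other cell type miRNAs moved in the same comparison. The summed level of 7 haematopoietic miRNAs (miR-142, miR-150, miR-223 and miR-342) ran from 15.01 to 15.56 in OVA/OVA, and from 14.17 to 14.73 after DEX, with 2 of its 6 tested members called higher in OVA/OVA. Of the red cell list, miR-144-3p and miR-451 were summed at 15.18 to 16.11 and 16.61 to 17.06, and both were called lower in OVA/OVA. MiR-486, also planned for this list, was not in the sum. The 5 miRNAs of the fibroblast list (miR-199 and miR-214) were at 12.55 to 12.81 and 12.78 to 13.04, with none called. The 7 miRNAs of ciliated epithelium (miR-34b, miR-34c and miR-449) were summed at 11.98 to 12.40 in OVA/OVA against 11.83 to 12.19 after DEX, so the ranges overlapped. In this list 2 of the 6 tested were called higher in OVA/OVA, while the median difference of the list was -0.32, lower in OVA/OVA. The lists for smooth muscle, striated muscle, endothelium, epithelium and neurons had none called. The part of these cell types in the differences of the locus was not tested.

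The other 6 tested members had adjusted p from 0.356 to 0.915 (limma) in this comparison. They included all 3 tested members of anti-Rtl1. MiR-136-5p had levels of 5.84 and 5.99 in PBS/PBS and of 5.68, 6.44, 5.78 and 5.73 in PBS/OVA. Its OVA/OVA levels ranged from 5.76 to 6.18 with a median of 5.81, and its OVA/OVA DEX levels were 6.03, 5.73, 6.01 and 6.01. The groups overlapped throughout, and the difference between OVA/OVA and OVA/OVA DEX was -0.02 (SE 0.15).

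MiR-127-3p, which lies opposite the coding sequence of Rtl1, had levels of 4.48 and 4.55 in PBS/PBS and of 4.24, 5.41, 4.28 and 4.10 in PBS/OVA. Its OVA/OVA levels ranged from 4.06 to 5.24 with a median of 4.57, and its OVA/OVA DEX levels were 4.53, 4.15, 4.28 and 4.44. The highest arrays were PBS/OVA replicate 2 and OVA/OVA replicates 2 and 1, and the groups overlapped, with a difference of 0.30 (SE 0.26, adjusted p 0.356, limma).

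MiR-434-3p had levels of 3.88 and 3.83 in PBS/PBS and of 3.25, 4.50, 3.47 and 4.26 in PBS/OVA. Its OVA/OVA levels ranged from 3.00 to 4.41 with a median of 3.71, and its OVA/OVA DEX levels were 3.48, 3.61, 4.77 and 3.39. It was highest on OVA/OVA DEX replicate 3, and the difference between OVA/OVA and OVA/OVA DEX was -0.12 (SE 0.32).

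MiR-299b-5p had levels of 4.18 and 4.23 in PBS/PBS and of 3.91, 4.95, 4.06 and 4.29 in PBS/OVA. Its OVA/OVA levels ranged from 4.24 to 4.60 with a median of 4.48, and its OVA/OVA DEX levels were 4.29, 3.89, 4.70 and 4.15. OVA/OVA DEX held both the highest and the lowest array of these 2 groups, and their difference was 0.19 (SE 0.19). MiR-329-3p ranged from 2.89 to 4.49 over all arrays and differed by -0.17 (SE 0.29) between OVA/OVA and OVA/OVA DEX.

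MiR-376c-3p, of a family whose precursors are known for A-to-I RNA editing, was detected on 2 of 2 PBS/PBS, 2 of 4 PBS/OVA, 0 of 6 OVA/OVA and 1 of 4 OVA/OVA DEX arrays. Its levels ranged from 0.77, the floor, to 5.18. Its OVA/OVA arrays spanned 0.77 to 4.75 and overlapped those of each other group. The bounds were 1.98-fold higher in PBS/PBS (adjusted p 0.364, limma) and 1.89-fold higher in PBS/OVA (adjusted p 0.268, limma) than in OVA/OVA. The bound against PBS/OVA is no firm minimum, since the PBS/OVA mean includes arrays without detection. Neither difference passed the test.

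**Figure D3:**
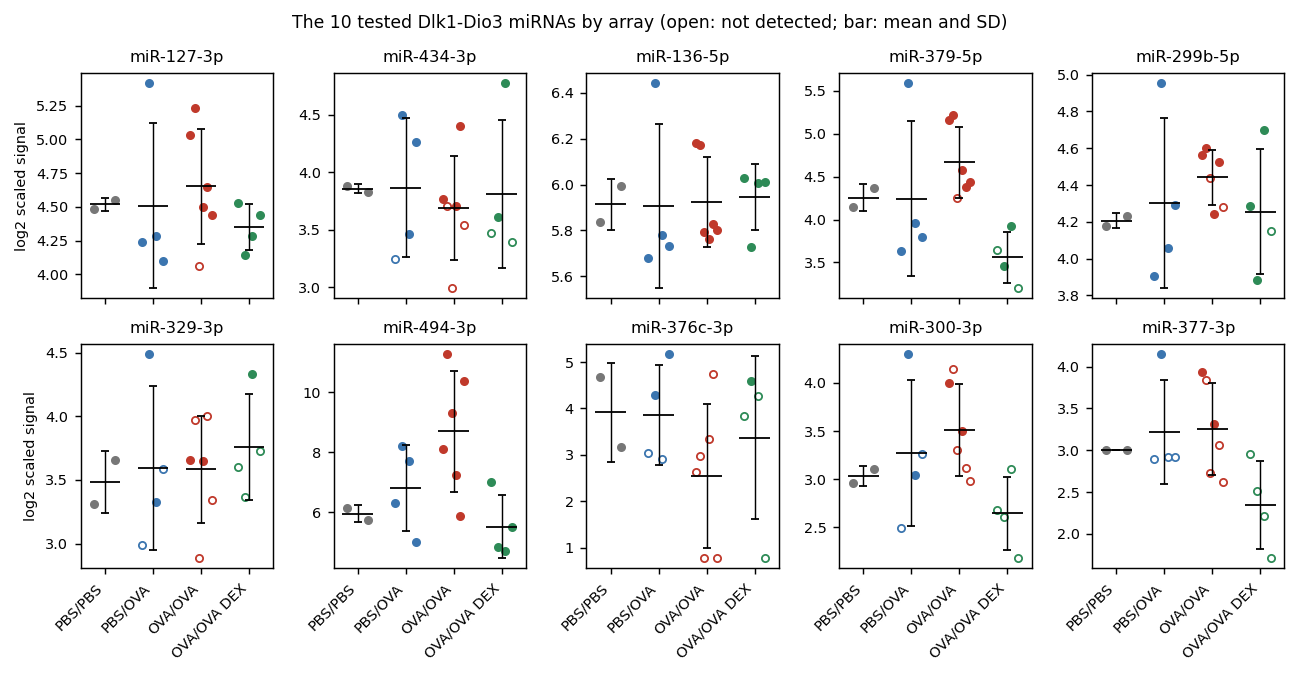
The log2 scaled signal (y axes, a different range in each panel) of the 10 tested members on each of the 16 arrays, by group (x axes), with open points for arrays on which the miRNA was not detected and bars for the mean and SD. MiR-494-3p reaches 11.29 in OVA/OVA, and miR-379-5p is the only member whose OVA/OVA and OVA/OVA DEX points do not overlap.

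**Figure D4:**
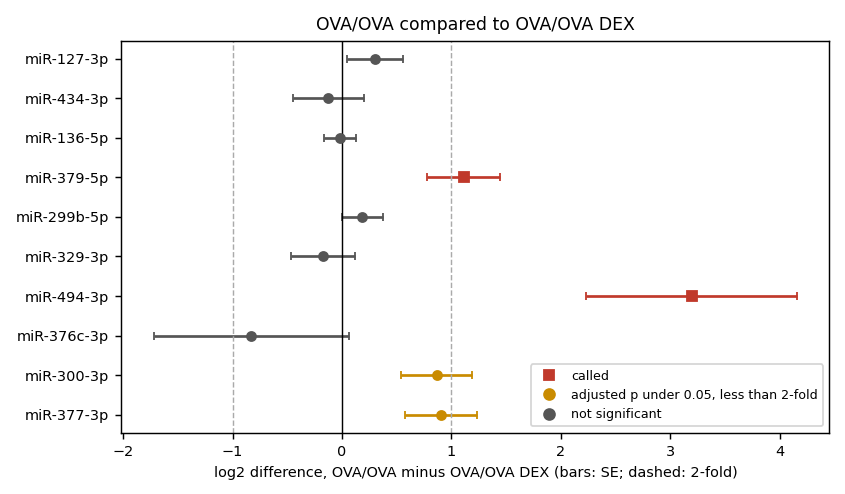
The log2 difference between OVA/OVA and OVA/OVA DEX (x axis) of the 10 tested members (rows, in their order along the locus), with the SE as bars and dashed lines at 2-fold. MiR-494-3p at 3.20 and miR-379-5p at 1.11 are called, and the anti-Rtl1 members miR-127-3p, miR-434-3p and miR-136-5p lie between -0.12 and 0.30.

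The second question was whether allergic sensitisation altered these miRNAs. Between OVA/OVA and PBS/OVA, both challenged with OVA, 0 of 10 members were called, against 5.26% of all tested miRNAs, and 0 had an unadjusted p under 0.05. The largest difference was that of miR-494-3p, 1.90 on the log2 scale (SE 0.96, adjusted p 0.139, limma), with 1.74 within slide 1 and 2.55 within slide 2. Without OVA/OVA replicate 5 it was called, with a difference of 2.46 and an adjusted p of 0.0408, while without PBS/OVA replicate 4 it was 1.30 (adjusted p 0.350, limma). Fitted along with array brightness it was 1.33 (adjusted p 0.418). The other 9 members lay between -1.31 and 0.43, with adjusted p of 0.268 or more.

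Compared to PBS/PBS, 0 of 10 members were called in OVA/OVA, against 9.77% of all tested miRNAs, and 1 had an unadjusted p under 0.05. That member was miR-494-3p, which was higher by 2.76 (SE 1.22) with an adjusted p of 0.104 (limma), and by 3.75 within slide 1, where both PBS/PBS arrays were. It was called with the slide as a block (3.91, adjusted p 0.026) and without OVA/OVA replicate 5 (3.32, adjusted p 0.0334). Fitted along with array brightness the difference was 1.60 (adjusted p 0.628). The other 9 members lay between -1.38 and 0.47. MiR-299b-5p was the 1 member whose arrays did not overlap, all 6 OVA/OVA arrays being above both PBS/PBS arrays, compared to 51.5% of all tested miRNAs without overlap.

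The third question was whether the OVA challenge alone altered the locus. Between PBS/OVA and PBS/PBS 0 of 10 members were called, against 0.376% of all tested miRNAs, and 0 had an unadjusted p under 0.05. No arrays separated any member, while 18.8% of all tested miRNAs had no overlap. The difference of miR-494-3p was 0.86 and was 2.01 within slide 1, where both PBS/PBS arrays were. It was 0.40 without PBS/OVA replicate 2, 1.46 without PBS/OVA replicate 4 and 0.27 with array brightness as a covariate, and was called under none of these. The other 9 members lay between -0.07 and 0.24.

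Lungs treated with DEX were also set against the controls. Between OVA/OVA DEX and PBS/PBS 0 of 10 members were called, against 0.0% of all tested miRNAs, and 0 had an unadjusted p under 0.05. MiR-494-3p differed by -0.44, and miR-377-3p and miR-379-5p were the 2 members without overlap, both lower in OVA/OVA DEX (27.1% of all tested miRNAs had none). Between OVA/OVA DEX and PBS/OVA 0 of 10 were called, against 0.752% of all tested miRNAs, and 1 had an unadjusted p under 0.05. The difference of miR-494-3p was -1.30, and 8 of the 10 members were lower in OVA/OVA DEX, with a median of -0.32 (0.15 with normexp) compared to 0.04 for all miRNAs. These comparisons share their OVA/OVA DEX arrays with the first one and are not separate evidence for it.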

How the data were processed

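MiRNA arrays of whole lung RNA were read from the scanner output that the authors deposited, in which Agilent Feature Extraction 10.7.3.1 (named in the submitters' processing notes) gives the intensity of each spot with the background subtracted. The authors also deposited processed log2 values. For miR-136-5p and miR-494-3p, the only tested members detected on all 16 arrays, these follow the scanner signal within an SD of 0.15. The other tested members could be compared only on the arrays that detected them. There the SD was 0.032 for miR-377-3p (5 arrays) and over 0.15 for the rest. All results rest on the scanner output, processed as described next, and the authors' processed values were used only for this match.

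Control spots and outlier flags were left out, spots were averaged per probe and probes summed per miRNA. For scaling, signals were divided by the array's 75th percentile among the 206 miRNAs that every array detected. Values under 1.71 (0.77 on the log2 scale), the median over arrays of the lowest detected signal, were set to it before log2. Group means were fitted with limma 3.58.1 in R 4.3.3 for the 266 miRNAs that all arrays of 1 group or more detected, with Benjamini-Hochberg adjustment. The number of arrays limits the precision. Bounds are the mean of the brighter group against the mean, per array, of the higher of the lowest detected signal and the value of the dim miRNA. They are no firm minimum where the brighter group also held arrays without detection.

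The fit was tested on simulated arrays in which OVA/OVA levels of 50 of the 266 miRNAs were raised, all by the same amount. It recovered 88% of them relative to PBS/PBS with 1 false call, 94% relative to PBS/OVA with 0, and 86% relative to OVA/OVA DEX with 0. These shares do not describe the members, each of which had an SD within groups above the median of 0.20 over all tested miRNAs. Every tested member is named. Values by array are given for members with an adjusted p under 0.05 and for the 6 with the highest mean signal. The members and lists were chosen with earlier results of these data known. Groups follow the labels, which give PBS as the challenge of PBS/PBS mice. Alternatives were other scalings and background correction, detection filters, floors, blocks, a covariate, another test and leaving out each array. Figures used Python 3.11.15 with matplotlib 3.10.9.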

Additional observations from a re-analysis of the deposited data

Results flagged for a closer look

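Of 30 combinations of a tested member and a group of 4 or 6 arrays, 6 held an array far from the others by Dixon's test, which chance gives in about 1 in 20. The gap as a share of the group's range was 0.860 for miR-127-3p, 0.873 for miR-136-5p, 0.985 for miR-377-3p and 0.831 for miR-379-5p, each with PBS/OVA replicate 2 as the highest array, at 5.41, 6.44, 4.15 and 5.59. These 4 share 1 array and are not separate events. In OVA/OVA DEX the share was 0.927 for miR-136-5p, with replicate 2 the lowest at 5.73, and 0.842 for miR-434-3p, with replicate 3 the highest at 4.77.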

How the results depend on the processing

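The call of miR-494-3p in OVA/OVA against OVA/OVA DEX was kept under each alternative run, with a difference of 2.68 to 3.76 when each array was left out and of 1.82 to 3.48 otherwise. The 2 members called in that comparison became 1 with the percentile over all miRNAs, no scaling, quantile normalization, normexp, or the filter to miRNAs detected on all arrays (which leaves 2 members), and also without PBS/OVA replicate 2 and OVA/OVA replicates 1 and 2, chosen after seeing the data. They became 4 without the 2-fold requirement and 4 with the replicate number as a block, where miR-300-3p and miR-377-3p were added at 1.09 and 1.11 (both lost an adjusted p under 0.05 with each other scaling, with normexp and with no detection filter), and 1 to 3 when each array was left out. The lost call was miR-379-5p, at 0.89, 0.82, 0.80 and 0.38 under the first 4 settings, and the cause was not tested. Against PBS/PBS the 0 members called in OVA/OVA became 3, all lower, without scaling, 1 with normexp (miR-494-3p, 2.17), 1 if slides were blocked, and 0 to 1 when each array was left out. Without scaling the median of all miRNAs itself shifted by -1.09 in that comparison, and by -0.29 in OVA/OVA against OVA/OVA DEX, while normexp shifted them by 0.56 and 0.25. Against PBS/OVA the count was 0 to 1 when each array was left out. MiR-494-3p in OVA/OVA DEX against PBS/PBS, uncalled at -0.44, turned to 0.35 with normexp, 0.42 if slides were blocked and 0.080 with the replicate block. Same-numbered samples deviated together (r over 0.1) in 3 of 18 pairs, from -0.78 to 0.41, which gave no sign that the numbers pair the samples. Samples with different numbers were not compared in this way, so pairing was not settled. Members near background on most arrays limit what could be seen, since 54 of 73 were detected on none.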
